A study of Homo sapiens with 10 samples.

Results

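S100 proteins are small calcium-binding proteins with a pair of EF-hand motifs. Most form dimers and, once calcium is bound, attach to other proteins inside the cell; several are also secreted and signal through the receptor RAGE. In the pancreas S100P is best known as a protein that is scarce in normal ducts and abundant in ductal adenocarcinoma.

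Ribosome footprints of 10 S100 genes, of 20289 genes listed, were followed in 2 established lines of human pancreatic ductal adenocarcinoma, CFPAC-1 and PANC-1. The surviving cells had been exposed to imidazole ketone erastin (IKE), a derivative of erastin that starves cells of cystine and triggers ferroptosis, or to DMSO alone. CFPAC-1 had 2 libraries with 0.1% DMSO and 2 with 10 µM IKE, and PANC-1 had 2 with 0.1% DMSO and 4 with 1 µM IKE, so that no dose was shared by the lines. The treatment label gives 24 h, whereas the footprint protocol describes treatment over several consecutive days. Cells of all groups were arrested with cycloheximide, and dead cells were washed away before lysis. A level therefore describes survivors and joins mRNA abundance with translation, and fewer expressing cells cannot be told apart from fewer footprints per cell. Matched mRNA levels were not analysed here.

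The genes were S100P (ENSG00000163993), S100A6 (ENSG00000197956), S100A4 (ENSG00000196154), S100A10 (ENSG00000197747), S100A11 (ENSG00000163191), S100A2 (ENSG00000196754), S100A14 (ENSG00000189334), S100A16 (ENSG00000188643), S100A8 (ENSG00000143546) and S100A9 (ENSG00000163220). S100P was chosen by its rise with IKE in both lines and S100A6 was chosen by its level in untreated PANC-1, where it was the top gene, so these values are descriptions with no test. The others were taken as relatives of these genes. The table names genes by Ensembl ID alone. The pairing of these 10 IDs with symbols came with the choice of the genes and could not be checked, because the reference table matched no Ensembl ID. For the same reason the labelled cell type was not checked against its markers, and the lists of S100 partners and other EF-hand genes were not counted.

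All 10 genes lie on GRCh38 as RefSeq (GRCh38.p14) places them, 9 on chromosome 1 and S100P on chromosome 4 (chr4:6693878-6697170). S100A10 (chr1:151982915-151993859) and S100A11 (chr1:152032506-152037004) stand 38.6 kb apart at the left end of the group. S100A9 (chr1:153357854-153361023) and S100A8 (chr1:153390032-153422583) follow. The remaining members lie within 81.7 kb in the order S100A6 (chr1:153534599-153535991), S100A4 (chr1:153543621-153545806), S100A2 (chr1:153561108-153565844), S100A16 (chr1:153606883-153613137) and S100A14 (chr1:153614255-153616325), all on the minus strand.

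The 250 bases before the RefSeq start of S100P (chr4:6693628-6693877, plus strand) are shown because this gene rose with IKE in both lines. Capitals mark a TATAAA box and a match to TGATGNAA, the core of the element bound by C/EBP and ATF factors, which here lies on the opposite strand.
S100P: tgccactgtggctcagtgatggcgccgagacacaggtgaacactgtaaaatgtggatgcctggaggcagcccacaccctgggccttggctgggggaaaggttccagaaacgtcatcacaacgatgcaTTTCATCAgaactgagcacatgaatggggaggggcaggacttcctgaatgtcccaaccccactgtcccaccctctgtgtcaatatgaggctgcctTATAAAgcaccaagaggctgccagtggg
The TATAAA match began 28 bases before the start and the TGATGNAA match 123 bases before it. On either strand, TATAAA was found in 10.7% and TGATGNAA in 3.14% of 35116 promoter windows of this length. TATAAA also matched in windows of S100A4, S100A8 and S100A9. S100P was the member with a TGATGNAA match, and the windows of the other 9 genes held none. TGACNNNGC, the core of the antioxidant response element, matched in the S100A14 window alone among the members and in 10.9% of all windows. These matches are letters in a window and not measured binding sites.

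The windows of S100A6 (chr1:153535992-153536241), S100A4 (chr1:153545807-153546056) and S100A14 (chr1:153616326-153616575), all read on the minus strand, are shown because the first gene was abundant in both lines and the others were each abundant in a different line. Capitals mark CG dinucleotides.
S100A6: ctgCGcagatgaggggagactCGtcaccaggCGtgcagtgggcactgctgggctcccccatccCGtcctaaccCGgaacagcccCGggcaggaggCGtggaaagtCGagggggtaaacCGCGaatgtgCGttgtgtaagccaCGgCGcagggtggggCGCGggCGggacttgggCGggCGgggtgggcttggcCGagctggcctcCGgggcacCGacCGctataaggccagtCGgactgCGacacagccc
S100A4: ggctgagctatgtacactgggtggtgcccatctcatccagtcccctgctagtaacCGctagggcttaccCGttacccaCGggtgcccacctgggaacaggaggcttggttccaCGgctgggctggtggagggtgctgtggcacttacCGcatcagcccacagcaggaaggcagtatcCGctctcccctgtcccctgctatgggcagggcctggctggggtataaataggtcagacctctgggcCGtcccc
S100A14: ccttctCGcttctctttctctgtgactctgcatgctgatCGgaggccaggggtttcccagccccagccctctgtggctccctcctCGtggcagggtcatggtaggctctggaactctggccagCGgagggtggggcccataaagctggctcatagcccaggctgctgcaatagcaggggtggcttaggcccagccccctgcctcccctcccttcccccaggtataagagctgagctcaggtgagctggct
The S100A6 window held 24 CG dinucleotides, as did that of S100A10, and the S100A11 window held 15, against a median of 11 over all windows. Of all windows, 57.1% held fewer than that of S100A11 and 76.3% fewer than that of S100A6. The S100A4 window held 7 and the S100A14 window 4. Every listed start of S100A2, S100A16, S100A8 and S100A9, and that of S100P, had between 1 and 6. The genes with windows above the median were the 3 most abundant members in CFPAC-1, but not in PANC-1. There S100A4, with a window below the median, had a higher mean than S100A11. The means were 3879 against 2098 FPKM with DMSO and 2847 against 1843 FPKM with IKE. Among the 9 genes above the filter on low values, the 3 with windows above the median had the smallest log2 differences between the untreated lines. This is a description of 10 genes, none of them chosen by its window. S100A6 was itself chosen by its level in untreated PANC-1, so its abundance is no separate result.

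Levels are in FPKM, footprint fragments scaled by gene length and library size, which allows genes to be compared within a library. Relative depth, read from the steps of low values, was 0.917 to 1.175 in the CFPAC-1 libraries and 0.211 to 0.877 in the PANC-1 libraries when CFPAC-1 DMSO replicate 1 is 1. These PANC-1 depths are uncertain, because 34.0% to 37.4% of low PANC-1 values came out within 0.1 read of whole, against 99.1% to 99.7% in CFPAC-1. Absolute depth is unknown. In each library the 10 top genes held 8.51% to 9.64% of summed FPKM in the CFPAC-1, PANC-1 DMSO and first PANC-1 IKE libraries, and 16.2%, 12.2% and 23.1% in PANC-1 IKE replicates 2 to 4. The part of this in the S100 values of those 3 libraries was not tested, and the PANC-1 effects of IKE are also given without replicates 2 and 4.

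S100A6, also called calcyclin, was the most abundant of the 10 S100 genes in every library. Its CFPAC-1 levels were 15421 and 16003 FPKM under DMSO, then 17066 and 14269 FPKM under IKE. Its PANC-1 levels were 27585 and 16462 FPKM under DMSO, then 18643, 32883, 22995 and 15587 FPKM in IKE replicates 1 to 4. The PANC-1 values spread widely, and IKE and DMSO overlapped in both lines. Among all genes S100A6 ranked first in both PANC-1 DMSO libraries, which is how it was chosen, 2 or 3 in each CFPAC-1 library, second in PANC-1 IKE replicates 1 to 3 and 7 in replicate 4. Alone it made up 1.16% to 1.38% of summed FPKM in CFPAC-1 and 1.21% to 2.41% in PANC-1. All 10 genes together made up 1.91% to 2.17% and 1.79% to 3.41%.

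**Figure D1:**
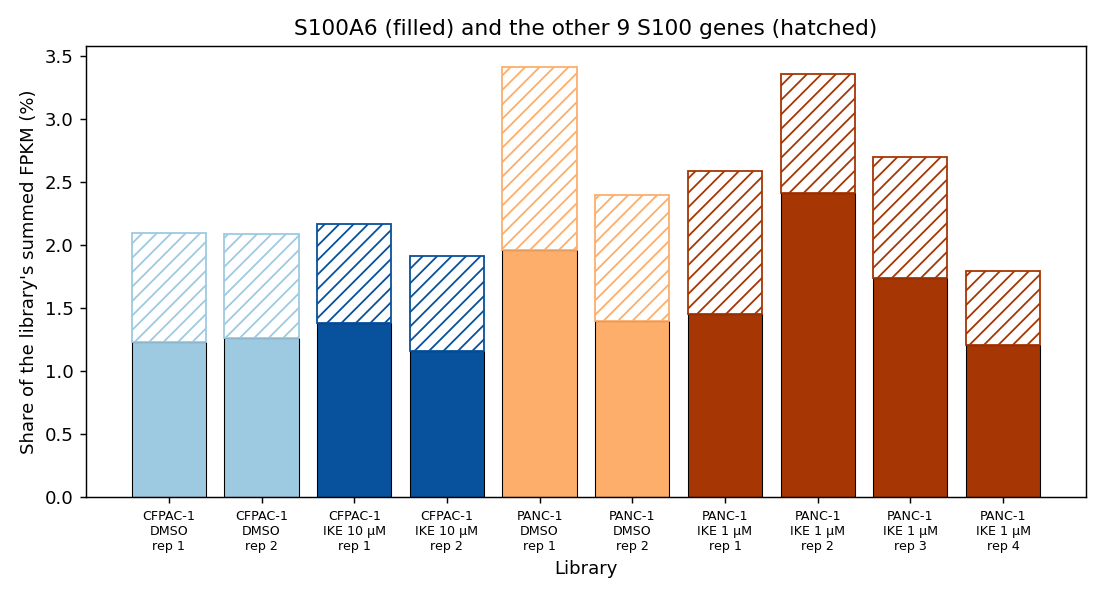
Share of each library's summed FPKM (percent, y axis) taken by S100A6 (filled) and by the other 9 S100 genes (hatched) in the 10 libraries. The total lies between 1.79% and 3.41%, both extremes being PANC-1 libraries, and S100A6 holds more than the other genes together in each library.

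S100A10, which joins annexin A2 at the inner face of the plasma membrane, came next in every group. Under DMSO the CFPAC-1 libraries gave 5892 and 5414 FPKM, the PANC-1 libraries 12739 and 6979 FPKM. S100A11, a partner of annexin A1, gave 3980 and 4124 FPKM in untreated CFPAC-1, compared with 2612 and 1583 FPKM in untreated PANC-1. In CFPAC-1 with DMSO the order of levels went on with S100A16, S100P, S100A14 and S100A4, each library pair clear of the next, and then S100A9 and S100A2, whose values overlapped. In PANC-1 with DMSO, S100A4 came after S100A10 and ahead of S100A11, and S100A16 followed. S100A2 and S100P overlapped there, as did S100A9, S100A14 and S100A8 at the bottom. S100A8 was listed at 0 in 10 of 10 libraries and entered no test; what a 0 allows cannot be given for it, because its reads could not be recovered.

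**Figure D2:**
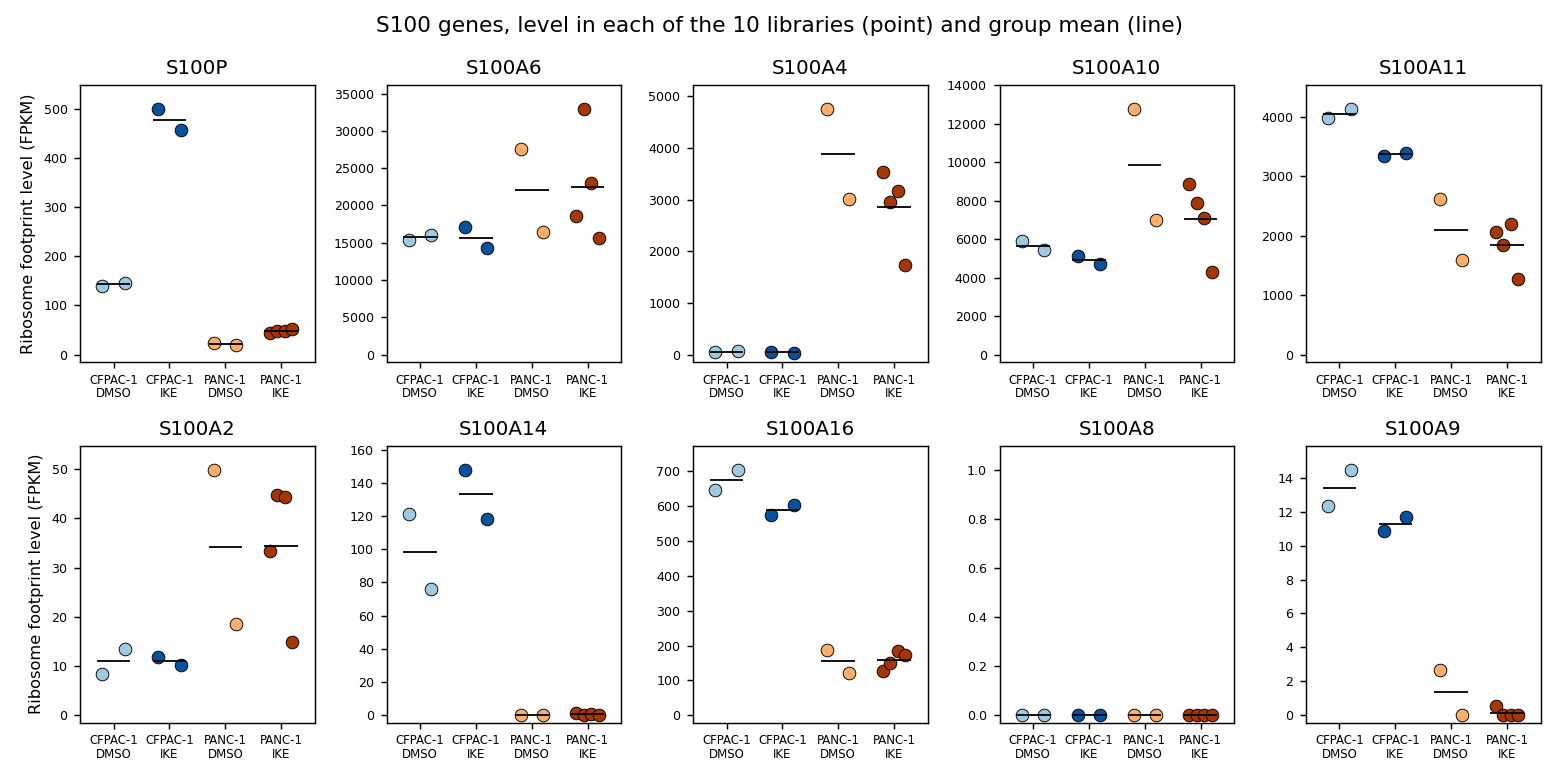
Footprint level in FPKM (y axis, a separate linear scale for each gene) in each library (points) of the 4 groups, with group means as lines. S100P is higher with IKE in both lines, S100A4 is high in PANC-1 alone, S100A14, S100A16 and S100A9 are high in CFPAC-1, and S100A8 is at 0 throughout.

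The first comparison asked how the untreated lines differ. Of the 8 genes tested, 2 were higher and 5 lower in PANC-1 than in CFPAC-1 (limma on log2(FPKM + 1), adjusted p under 0.05 over 13125 genes). The share called over all genes was 37.9%, with 16.8% higher and 21.1% lower. All 8 had an unadjusted p under 0.05, as had 46.5% of all genes. S100A9 and S100A14 passed the filter on low values through CFPAC-1, so a difference in that direction was built into their entry. Without them, and without S100A6, which its PANC-1 level chose, 6 genes remain, of which 2 were called higher and 3 lower. S100P is among these 6, although its DMSO levels entered the rise with IKE that chose it. The DMSO libraries of the lines did not overlap for any of these 6, with 3 lying higher and 3 lower in PANC-1. Of all genes 70.6% did not overlap, 33.8% lying higher and 36.8% lower. The median log2 difference of the 6 genes was -0.12, against -0.028 over all genes.

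S100A4 had the widest gap in favour of PANC-1. This protein binds non-muscle myosin and is known as a marker of mesenchymal, motile cells. The untreated CFPAC-1 libraries held 46.8 and 60.6 FPKM, those of PANC-1 4744 and 3014 FPKM. Both PANC-1 libraries lay far above both CFPAC-1 libraries, with a log2 difference of 6.12 ± 0.33 (SE; 69.7-fold, limma adjusted p = 5.5e-07). By rank among all genes it stood at 25 and 41 in PANC-1 DMSO and at 3816 and 3231 in CFPAC-1 DMSO.

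S100A2, a p53 target found in basal and squamous epithelium, was low in both lines. Untreated CFPAC-1 gave 8.45 and 13.5 FPKM, untreated PANC-1 49.8 and 18.6 FPKM, where its libraries differed more from each other than in CFPAC-1. The log2 difference was 1.43 ± 0.50 (SE; limma adjusted p = 0.045). This call was lost in 12 of 21 alternatives, and without PANC-1 DMSO replicate 1 the difference was 0.74 (adjusted p = 0.464). S100A10 was 0.74 ± 0.34 higher on the log2 scale and was not called (limma adjusted p = 0.107). S100A6 was 0.44 ± 0.35 higher, given with no test since its PANC-1 level chose it.

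S100A14, an S100 protein of epithelia, showed the opposite gap. Untreated CFPAC-1 gave 121 and 75.8 FPKM, and both untreated PANC-1 libraries listed the gene at 0 (limma adjusted p = 1.91e-06). No fold is given against a group at 0. The direction was built into the gene's entry through CFPAC-1, so its p is no support for that direction. In PANC-1 with IKE replicates 1 and 3 gave 1.13 and 0.99 FPKM, and replicates 2 and 4 gave 0. The reads of this gene could not be recovered from its values, so the value of IKE replicate 3 was taken to be 1 read. On that assumption and at the estimated depths, replicate 1 held about 2 reads. A count of 0 (up to 3 reads, counting error only) then allows 2.93 FPKM in the first and 4.52 FPKM in the second PANC-1 DMSO library. These limits share the assumption and the uncertain PANC-1 depths.

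S100A16, the immediate neighbour of S100A14, was lower in PANC-1 but clearly present. Its untreated levels were 646 and 704 FPKM in CFPAC-1 but 187 and 122 FPKM in PANC-1. The log2 difference was -2.15 ± 0.25 (SE; limma adjusted p = 5.79e-05). S100A11 differed less, by -0.99 ± 0.28 (SE; limma adjusted p = 0.0179). That call was lost without PANC-1 DMSO replicate 2 (adjusted p = 0.209) and without CFPAC-1 DMSO replicate 2 (0.0525).

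S100P was lower in PANC-1 before any treatment. Untreated CFPAC-1 gave 139 and 146 FPKM, untreated PANC-1 24.4 and 19.7 FPKM. The log2 difference was -2.65 ± 0.22 (SE; limma adjusted p = 5.78e-06), and the ratio of the CFPAC-1 to the PANC-1 mean was 6.48. These DMSO levels also entered the rise with IKE that chose the gene, so its p is no independent support.

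S100A9, the partner of S100A8 in calprotectin of myeloid and inflamed epithelial cells, was scarce. Untreated CFPAC-1 gave 12.3 and 14.4 FPKM, untreated PANC-1 2.69 and 0 FPKM. For this gene a value of 1 read was sought that puts every level above 0 within 0.08 read of whole, plus rounding. That closeness was set by the search and is no evidence for the counts. The estimates were 27 and 29 reads in CFPAC-1 DMSO and 28 and 25 in CFPAC-1 IKE. They were 3 and 0 in PANC-1 DMSO, and 1, 0, 0 and 0 in PANC-1 IKE. These make 109 estimated reads in CFPAC-1 and 4 in PANC-1, where the depths are uncertain. The log2 difference with DMSO, -2.90 ± 0.48 (SE, limma adjusted p = 0.000763), was called, but its direction was built into the gene's entry through CFPAC-1. Its size rests on 1 PANC-1 library with 3 estimated reads and on the pseudocount. It was -4.67 with a pseudocount of 0.1 and -1.56 with 5. Its calprotectin partner S100A8 was listed at 0 beside it in every library.

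The differences of the 5 members from S100A6 to S100A14 on chromosome 1 can be set out by place. S100A6, S100A4 and S100A2 had log2 differences of 0.44 ± 0.35, 6.12 ± 0.33 and 1.43 ± 0.50 (SE). S100A16 and S100A14, which lie 72.3 and 79.7 kb from S100A6 and 1.12 kb apart, had differences of -2.15 and -6.60. The last value depends on the pseudocount, since PANC-1 DMSO was at 0, and was -9.91 and -4.34 with pseudocounts of 0.1 and 5. RefSeq also places S100A3 between S100A4 and S100A2, and that gene was not analysed here. S100A6 was chosen by its PANC-1 level, and its 95% interval ran from -0.34 to 1.21. S100A14 passed the filter through CFPAC-1, and the S100A2 call was lost in 12 of 21 alternatives. No pattern by place is therefore read from these signs. The members in this stretch were not chosen for their place, and the arrangement was seen after the values were known.

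**Figure D3:**
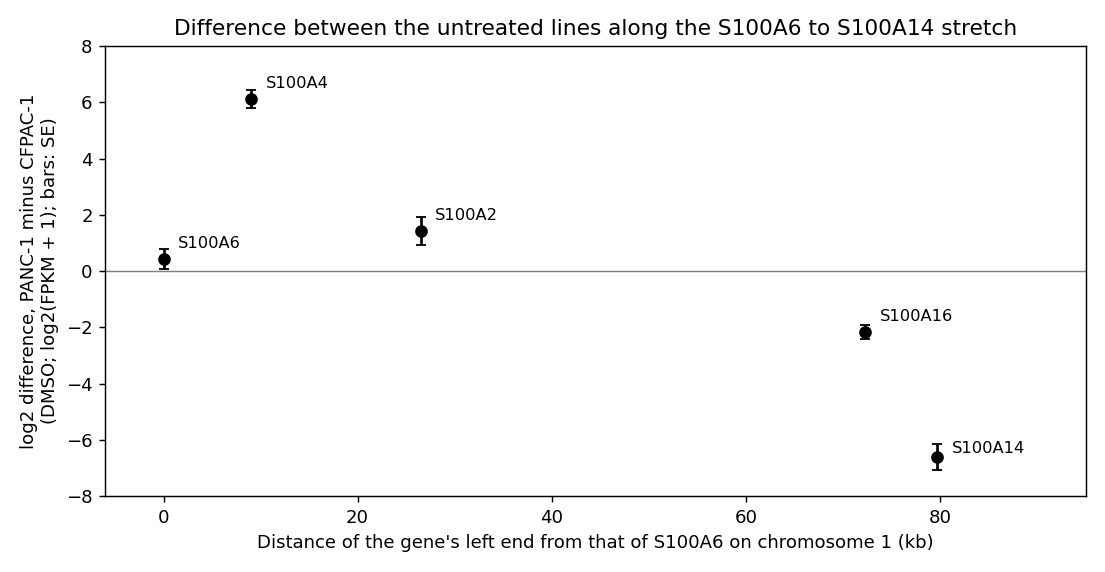
Log2 difference between PANC-1 and CFPAC-1 with DMSO (y axis, log2(FPKM + 1), bars are SE) for the 5 S100 genes analysed from S100A6 to S100A14 on chromosome 1 (S100A3, which also lies there, was not analysed here), plotted by the distance of their left ends from that of S100A6 (x axis, kb). The 3 genes on the left are above 0 and the 2 on the right below 0. S100A6 was chosen by its PANC-1 level, and S100A14 passed the filter through CFPAC-1.

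The second comparison asked how the S100 genes behaved in surviving CFPAC-1 cells with 10 µM IKE. S100P reached 498 and 456 FPKM under IKE, where the DMSO libraries gave 139 and 146 FPKM. Each IKE library was 3.12 to 3.58 times each DMSO library, and the log2 fold change was 1.73 ± 0.13 (SE; a description, since this rise chose the gene). Its rank among all genes went from 1640 and 1600 to 428 and 484, and among the 10 S100 genes it stayed between S100A16 and S100A14.

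None of the other 8 genes above the filter was called in CFPAC-1 by limma, and none had an unadjusted p under 0.05 (lowest 0.118). The share of all genes called was 0.35% (0.267% higher and 0.0838% lower), and 11.7% had an unadjusted p under 0.05. Overlap between DMSO and IKE was absent for 5 of these 8 genes, which all lay lower with IKE. These were S100A4, S100A10, S100A11, S100A16 and S100A9. After median-of-ratios scaling of the libraries, S100A4 and S100A10 overlapped. S100A4 was then at 46.7 and 59.0 with DMSO against 46.8 and 38.4 with IKE. S100A10 was at 5882 and 5275 with DMSO against 5284 and 4604 with IKE. For S100A9 the gap was small, from 12.3 and 14.4 FPKM with DMSO to 10.9 and 11.7 FPKM with IKE. Its estimated reads overlapped, 27 and 29 with DMSO against 28 and 25 with IKE. Of all genes 42.6% did not overlap before that scaling, 20.2% lying higher and 22.3% lower. S100A11 levels under IKE, 3344 and 3399 FPKM, lay below the DMSO values of 3980 and 4124 FPKM, by -0.26 ± 0.17 on the log2 scale (SE; limma adjusted p = 0.59). S100A10 was at 5143 and 4694 FPKM with IKE, a change of -0.20 ± 0.20, and S100A16 at 576 and 604 FPKM, a change of -0.19 ± 0.15. The 95% intervals of these 3 changes ran from -0.63 to 0.10, from -0.63 to 0.23 and from -0.51 to 0.13. S100A4 was at 45.5 and 39.1 FPKM with IKE, and its log2 fold change of -0.33 ± 0.19 was the most negative of the 8. S100A14 went the other way, to 148 and 118 FPKM, but overlapped its DMSO values of 121 and 75.8 FPKM (log2 fold change 0.46 ± 0.27). S100A6 was at -0.01 ± 0.21 and S100A2 at 0.04 ± 0.30, both of which changed sign under other settings.

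The same question was put to PANC-1 with 1 µM IKE. S100P reached 44.1, 47.2, 48.3 and 51.0 FPKM in IKE replicates 1 to 4, where DMSO gave 24.4 and 19.7 FPKM. The groups did not overlap, each IKE library was 1.81 to 2.59 times each DMSO library, and the log2 fold change was 1.09 ± 0.25 (SE; a description). With IKE the PANC-1 level still lay below that of untreated CFPAC-1, whose mean was 2.99 times as high. S100P varied little over the 4 IKE libraries, with an SD of 2.86 FPKM around 47.7, while S100A6, S100A4, S100A10, S100A11 and S100A2 had their lowest PANC-1 value in IKE replicate 4, the library with the highest S100P value. Replicate 4 had the lowest estimated depth, 0.211, and its 10 top genes held 23.1% of summed FPKM. The part of this in its low values was not tested. S100A14, at 75.8 FPKM or more in every CFPAC-1 library, was at 0 in replicate 4 and at 1.13 FPKM or less in the other PANC-1 IKE libraries. On the assumption of 1 read given above, a 0 allows 7.05 FPKM in replicate 4 and 6.2 FPKM in replicate 2.

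Of the other genes, 7 were tested in PANC-1 and none was called by limma or had an unadjusted p under 0.05 (lowest 0.166). None of all 13125 genes was called in this comparison (0%), and 10.9% had an unadjusted p under 0.05. With equal weights for both lines 2 of all genes were called. DMSO and IKE overlapped for each of the 7 genes, where 22.4% of all genes did not overlap, 10.2% lying higher and 12.2% lower. S100A4 was at 3530, 2948, 3171 and 1738 FPKM with IKE, against 4744 and 3014 FPKM with DMSO. Replicate 4 alone lay well below the lower DMSO library. The log2 change over the groups was -0.46 ± 0.37 (SE; adjusted p = 0.661 by limma). S100A10 was at 8852, 7862, 7120 and 4309 FPKM, a change of -0.47 ± 0.37 (limma adjusted p = 0.655). Both genes had their highest PANC-1 value in DMSO replicate 1, as had S100A11, S100A2, S100A16 and S100A9. Without that library the changes of S100A4 and S100A10 were -0.13 and -0.04, and without DMSO replicate 2 they were -0.79 and -0.91. Without IKE replicates 2 and 4 they were -0.18 and -0.25.

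S100A11 was at 2068, 1844, 2192 and 1268 FPKM with IKE, a change of -0.17 ± 0.32. S100A16 was at 128, 150, 186 and 173 FPKM, a change of 0.06 ± 0.28. S100A2 was at 33.4, 44.8, 44.3 and 14.8 FPKM, a change of 0.05 ± 0.56 with a 95% interval from -1.19 to 1.29. Changes of up to that size in S100A2 could therefore not be seen here. S100A6 was 0.02 ± 0.39 from its DMSO level, given with no test, and at -1.19 after quantile normalization. S100A14 was at 0.52 ± 0.52 and S100A9 at -0.79 ± 0.53, resting on 0 to 3 estimated reads in each library. Without IKE replicates 2 and 4 the changes were 1.04 for S100A14, -0.64 for S100A9, 0.32 for S100A2, 0.07 for S100A11 and 0.03 for S100A16. S100A6 was then at -0.04 and S100P at 1.04.

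**Figure D4:**
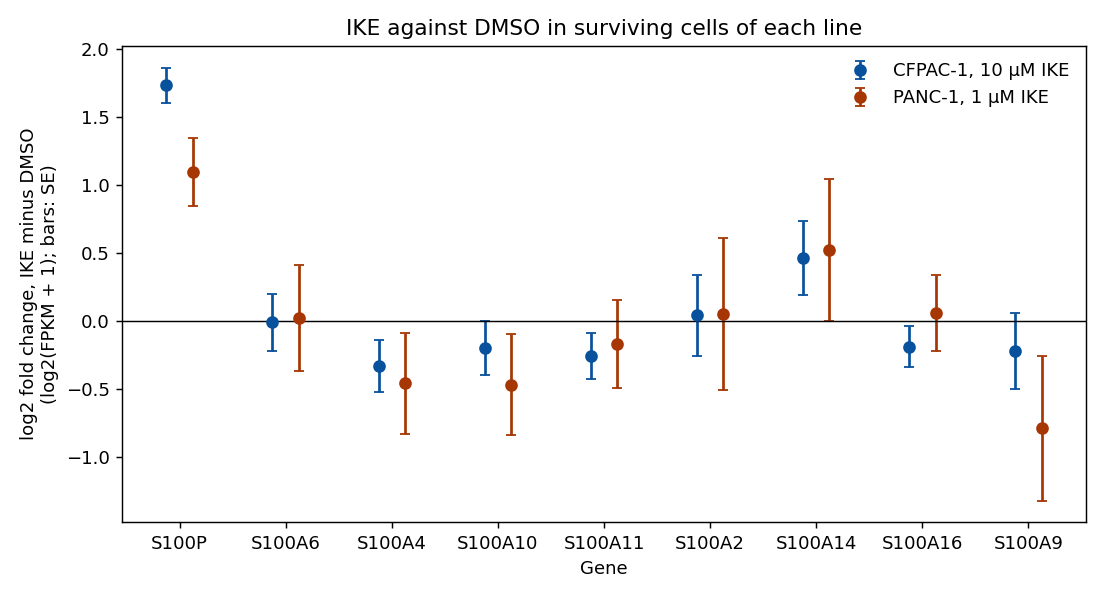
Log2 fold change with IKE against DMSO (y axis, log2(FPKM + 1), bars are SE) of the 9 S100 genes above the filter, in CFPAC-1 (10 µM) and PANC-1 (1 µM). S100P is at 1.73 and 1.09, and the other genes lie between -0.33 and 0.46 in CFPAC-1 and between -0.79 and 0.52 in PANC-1.

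The last comparison took the difference of the IKE effects, in which line and dose change together. None of 7 genes tested was called by limma or had an unadjusted p under 0.05 (lowest adjusted p = 0.738, lowest unadjusted p = 0.367), where 0.0229% of all genes were called (0.00762% higher and 0.0152% lower) and 12.5% had an unadjusted p under 0.05. The 95% intervals of the difference ran from -0.70 to 0.88 for S100A11 and from -0.43 to 0.94 for S100A16, the narrowest of the 7. For S100P the effect in PANC-1 was 0.65 ± 0.28 smaller on the log2 scale, a description. Values of S100P with IKE were 498 and 456 FPKM in CFPAC-1 against 44.1 to 51.0 FPKM in PANC-1, a ratio of means of 10.0, and with DMSO the ratio was 6.48.

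The genes whose levels ran most like those of S100P over the 10 libraries were sought among 10702 genes whose mean level reached 5 FPKM. ENSG00000172216 and ENSG00000101255 came first, with Pearson correlations of 0.9887 and 0.9877 of log2(FPKM + 1). For S100A6 they were ENSG00000186184 (0.9692) and ENSG00000177556 (0.9665). These correlations are descriptions over libraries that share lines and treatments, and the IDs are not paired with names here.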

How the data were processed

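Ribosome footprint libraries of 10 samples were analysed from a table that the authors deposited in FPKM, per the file headers. The build GRCh38 and the tools RSEM, STAR, DESeq2, fastp and Bowtie2 2.2.8 are listed in the submitters' processing notes without role or order. The annotation was not given in the sources used here, nor was the strand setting. Reads shared by overlapping genes cannot be told apart for this reason.

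The members, lists and tests were chosen with earlier results of these data known. Genes averaging 1 FPKM or more entered the test (13125 genes). The model was limma 3.58.1 (R 4.3.3) on log2(FPKM + 1), with 4 groups in 1 model (6 residual degrees of freedom), 1 variance weight per line (2.579 for CFPAC-1, 0.532 for PANC-1), a trend of variance on level and p-values adjusted by Benjamini-Hochberg. Line weights were taken because an earlier fit with equal spread had shown unequal spread of the lines. Fold changes of low genes come out too small on this scale. The named genes were the 10 members and the 3 genes most like S100P and S100A6, of which 2 each are given.

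The fit and the depth estimate were tested on simulated data. There the line weights gave too many calls in CFPAC-1, where 44 unchanged genes were called beside 88 of 200 genes changed 2-fold. In PANC-1 the effect of IKE was called for 0 of 200 genes changed 2-fold. At 4-fold 96 of 200 were called there, and at 8-fold 151 of 200. Changes of 4-fold or more could therefore also be missed in PANC-1. The lists of S100 partners and cell type markers could not be matched to Ensembl IDs and were not used. The labels call the replicates biological. Alternatives covered the pseudocount, the filter, the scaling, the weights, the block and each library left out.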

Additional observations from a re-analysis of the deposited data

Results flagged for a closer look

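Among the 4 PANC-1 IKE libraries, replicate 1 stood apart for S100A9, at 0.52 FPKM where the other 3 were listed at 0. At the estimated depth this is about 1 read. With 3 values at 0 any value above 0 in the remaining library would stand apart, so nothing is read from it.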

How the results depend on the processing

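Directions and calls of S100A4, S100A16 and S100P between the untreated lines held in all 21 alternatives. Those of S100A14 and S100A9 held as well, but their direction was built into their entry through CFPAC-1, so this is no support for them. The S100P call rests on DMSO levels that also entered the rise with IKE that chose it. No tested member was called for IKE in either line, or for the difference, in any alternative run. The number called higher between the lines was 2, and 1 with a pseudocount of 0.1, with no filter, with equal weights, in the separate fit and with the replicate block, the lost call being S100A2 (adjusted p = 0.056, 0.0683, 0.0802, 0.0989 and 0.0613). It was 1 to 3 when 1 library was left out. S100A10 was called without PANC-1 IKE replicate 4 (adjusted p = 0.0374) or without replicates 2 and 4 (0.0433), and S100A11 was not called in the separate fit (0.0688). The replicate block changed no other call. Whether equal replicate numbers pair the samples is not settled. The differences of replicate 1 and replicate 2 correlated over genes at 0.049 (CFPAC-1 DMSO with IKE) and -0.206 (the same for PANC-1). With 1 such difference in each group, these values cannot decide it. The CFPAC-1 IKE calls over all genes were 46, but 1 with equal weights, 16 in the separate fit and 77 with a pseudocount of 5.

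Uncalled values near 0 changed sign. For S100A6 the CFPAC-1 effect was 0.14 after quantile normalization and 0.02 after median-of-ratios scaling, and the PANC-1 effect and the difference were -1.19 and -1.33 after quantile normalization. In PANC-1, S100A11 was at 0 with library weights and 0.07 without IKE replicates 2 and 4, and S100A16 was at -0.12 with the replicate block. S100A6 without IKE replicates 2 and 4 was at -0.04 in PANC-1 and -0.03 in the difference. The difference of effects was 0.04, 0.10 and 0.15 for S100A4 (library weights, replicate block, without replicates 2 and 4), 0.02 for S100A10 with the replicate block and -0.30 for S100A14 with a pseudocount of 5. With 1 library left out, the CFPAC-1 effect ran from -0.14 to 0.12 for S100A6 and from -0.27 to 0.35 for S100A2. The PANC-1 effect ran from -0.53 to 0.19 for S100A11, -0.64 to 0.74 for S100A2, -0.25 to 0.37 for S100A16 and -1.73 to 0.15 for S100A9. The difference ran from -0.46 to 0.20 for S100A4, -0.71 to 0.16 for S100A10, -0.27 to 0.45 for S100A11, -0.68 to 0.70 for S100A2, -0.27 to 0.40 for S100A14, -0.05 to 0.56 for S100A16 and -1.51 to 0.38 for S100A9. The cause was not tested. S100P with IKE stayed between 1.67 and 1.85 in CFPAC-1 and between 0.94 and 1.23 in PANC-1. Quantile normalization moved the median difference between the lines over all genes from -0.028 to 0.103. S100A9 and S100A14 rest on 0 to 3 estimated reads in each PANC-1 library, and the depths behind these estimates are uncertain. For S100A14 the estimates also assume that its value in PANC-1 IKE replicate 3 is 1 read.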
